A study of Rattus norvegicus with 32 samples.

Results

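The genes described here are the transcription factor Myc, its dimer partner Max, 5 factors that compete with MYC for MAX, and 36 genes of nucleolar ribosome biogenesis. They were measured in C6 cells, an established rat glioma line, on 1-colour Agilent arrays. A gene belonged to the set when a non-control probe carried its symbol, which held for 41 of the 43 listed symbols. Tsr1 and Rrp12 had no probe under those names and were not analysed. All 41 passed the filter on dim probes at both times, of 13630 genes tested at 3 h, 16446 at 6 h and 26583 gene names in all.

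Confluent C6 cells in medium with 10% fetal bovine serum formed 4 groups at 3 h and again at 6 h, with 4 replicates in each, 32 arrays in total. Control cells received no angiotensin II, Ang II cells received 100 nM of this peptide, and Ang II+Los cells and Ang II+PD123319 cells were first held for 30 min in 10 µM Losartan or 10 µM PD123319 and then received the same Ang II. Losartan blocks the AT1 receptor and PD123319 the AT2 receptor. No group received an antagonist without Ang II, and serum was present in all groups. The labels do not say whether replicates were separate cultures, so p-values measure only the spread between these samples. Each slide held the 4 groups of 1 replicate number and time, always in the same order of positions, so position on the slide and treatment cannot be told apart.

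Between 55.9% and 79.75% of the spots on an array were well above background. The 3 h arrays of replicate 2 stood apart, with an SD over all genes of 0.70 for the within-slide log2 difference between Ang II and Control and 0.88 between Ang II+Los and Ang II, against 0.22 to 0.55 on the other slides in these 2 comparisons. The glial genes S100b, Vim and Nes were well above background on all 16 arrays of each time, whereas the astrocyte marker Gfap was so on 0 arrays at 3 h and 2 at 6 h. Markers of other cell types were mixed. Ptprc of leukocytes, Pecam1 of endothelium and Syt1 of neurons were well above background on 0 arrays. Snap25 and Map2 of neurons, Aif1, Itgam and Cx3cr1 of microglia, and Col1a1, Col1a2 and Pdgfrb of fibroblasts were so on all 16 at each time, and endothelial Cdh5 on 12 at 3 h and 16 at 6 h. The part of other cell types in the results was not tested. In a bulk sample of this kind, fewer cells expressing a gene and less RNA per cell cannot be told apart.

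MYC binds DNA as a dimer with MAX, chiefly at the E-box, and raises transcription of genes for growth and division. The MXD proteins, MXI1 and MNT also pair with MAX and repress through the same motif. Many classical MYC targets act in the nucleolus, where RNA polymerase I transcribes ribosomal DNA, small nucleolar ribonucleoproteins (snoRNPs) modify the transcript, and processing factors cut it and assemble the 2 ribosomal subunits. MYC is frequently active in gliomas, and nucleolar output follows the demand of growing cells for protein.

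The E-box was looked for in the RefSeq promoter windows of the GRCr8 assembly, which run from 250 bases before to 50 bases after each gene start. The letters searched were CACGTG, which read the same on both strands. Windows were matched by symbol for 39 listed genes, among them Tsr1 and Rrp12, which had no probe. None was matched for Myc, Wdr43, Bop1 and Rrs1. Before the start site the motif occurred in 8 of these 39 (20.5%), in 8.21% of the 7523 genes tested at 6 h that had a window, and in 5.59% of all 33469 windows. The 8 were 3 of 6 MYC network genes and 5 of 33 others (15.2%). Over the whole window it occurred in 13 of 39 (33.3%), beside 9.44% of the genes tested at 6 h and 6.42% of all windows. Bysl, Fbl, Nop2, Rrp12 and Tsr1 had it only outside the part before the start. The 8 genes with the motif before the start were Max, Mnt, Mxd4, Gnl3, Utp20, Dkc1, Pes1 and Ltv1. The sequences of Max and of the 4 that also met the threshold for a change in at least 1 comparison are shown, because MYC, MNT and MXD proteins share this motif. Each is written 5′ to 3′ on the gene's strand with the E-box in capitals. They lie at chr6:101395291-101395353 (minus strand) for Max, chr10:60197806-60197871 (plus) for Mnt, chr14:80786554-80786619 (plus) for Mxd4, chr16:6219783-6219837 (minus) for Gnl3 and chr7:25102941-25103006 (minus) for Utp20.
Max: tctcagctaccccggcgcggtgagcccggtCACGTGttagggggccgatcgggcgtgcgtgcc
Mnt: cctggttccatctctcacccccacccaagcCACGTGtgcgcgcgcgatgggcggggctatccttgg
Mxd4: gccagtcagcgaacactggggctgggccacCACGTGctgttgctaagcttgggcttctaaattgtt
Gnl3: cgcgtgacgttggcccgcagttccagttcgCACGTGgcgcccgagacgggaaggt
Utp20: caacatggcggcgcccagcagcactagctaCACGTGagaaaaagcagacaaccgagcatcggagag
The centre of the motif lay 22 bases before the start of Gnl3, 30 before Max, 120 before Mnt, 124 before Utp20 and 194 before Mxd4. These matches describe the letters in the window and not occupancy by any factor.

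Levels below are log2 processed signals after cyclic loess within the 16 arrays of a time, and differences are log2 fold changes from limma with the slide as a block. A gene was called when its unadjusted p was under 0.05 and its fold was above 1.2 or below 0.8. No gene, member or not, had a Benjamini-Hochberg adjusted p under 0.05 in any of the 6 comparisons (0% of the genes tested), although 12.7% of genes had, when Ang II was set against Control for 3 h, and 21.5% for 6 h, an unadjusted limma p under 0.05. Every call below therefore rests on unadjusted p-values.

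Ang II x Control at 3 h addressed the early response to the peptide. Myc fell, and with it Bysl, Nop58 and Gnl3, whereas Fbl rose. The 4 lower members were 9.76% of 41, beside 5.99% of all genes called lower, and the 1 higher member was 2.44%, beside 5.04% of all genes called higher. The median over the members was 0.04 on the log2 scale against 0.00 over all genes, with 24 members above 0 and 17 below. This median changed sign with the scaling, to -0.02 under 75th percentile scaling, -0.05 under quantile normalization and -0.01 with normexp background correction.

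The Myc probe lies at chr7:98957687-98957746 on the plus strand of rn4, the build in the array files. In Control cells at 3 h its level was 9.19, 10.28, 10.41 and 10.04 in replicates 1 to 4. In Ang II cells it was 8.90, 9.15, 10.55 and 8.96. The groups overlapped only through the Ang II array of replicate 3. The within-slide difference was negative on 3 slides (-0.29, -1.14 and -1.09) and positive on the slide of replicate 3 (0.14). The fitted log2 fold change was -0.60 ± 0.20 (SE), a fold of 0.662, with an unadjusted limma p of 0.0103 and an adjusted p of 0.326. The call was lost without replicate 2 (log2 fold change -0.41) and without replicate 4 (-0.43), and also by the paired t-test, by the unpaired t-test, without the slide block and in the pair of slides of replicates 3 and 4. The paired t-test called none of the 4 lower members at 3 h, and its 2 calls were Fbl and Rrn3, both higher.

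With the antagonists, Myc at 3 h stayed near its level under Ang II alone. It was 9.05, 9.18, 10.53 and 9.23 with Losartan, and 8.63, 8.91, 10.29 and 8.89 with PD123319. The Losartan difference from Ang II was 0.11 ± 0.20 (SE), and the PD123319 difference was -0.21 ± 0.20 (SE), negative on 4 of 4 slides. Neither passed the test, with adjusted limma p of 0.78 and 1. At 6 h the 4 Control arrays read 9.09, 10.57, 9.61 and 10.11 and the 4 Ang II arrays 9.40, 10.17, 9.87 and 9.72, so that 2 slides went up and 2 down. The 6 h difference was -0.06 ± 0.17 (SE), and its sign turned to 0.06 without replicate 2 and without replicate 4. Subtracting the 3 h difference from that at 6 h, in 1 fit over all 32 arrays, gave 0.55 ± 0.27 (SE) for Myc with an unadjusted limma p of 0.0586 and an adjusted p of 0.741. With Losartan at 6 h Myc read 9.40, 10.29, 9.88 and 9.63, and with PD123319 9.48, 9.64, 9.68 and 9.37. The PD123319 arrays lay within the narrowest range of the 4 groups at 6 h, and their difference from Ang II was -0.25 ± 0.17 (SE), negative on 3 of 4 slides and not called.

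Max, the common partner, was called in none of the 6 comparisons. Its mean ± SD was 6.33 ± 0.26 in Control and 6.45 ± 0.28 in Ang II cells at 3 h, and 7.24 ± 0.14 and 7.16 ± 0.17 at 6 h, each over 4 arrays. Its differences ran from -0.35 ± 0.23 (SE), with Losartan at 3 h, to 0.12 ± 0.23 (SE), for Ang II against Control at 3 h. The first of these turned positive, to 0.03, without replicate 2, whose slide alone differed by -1.49.

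**Figure D1:**
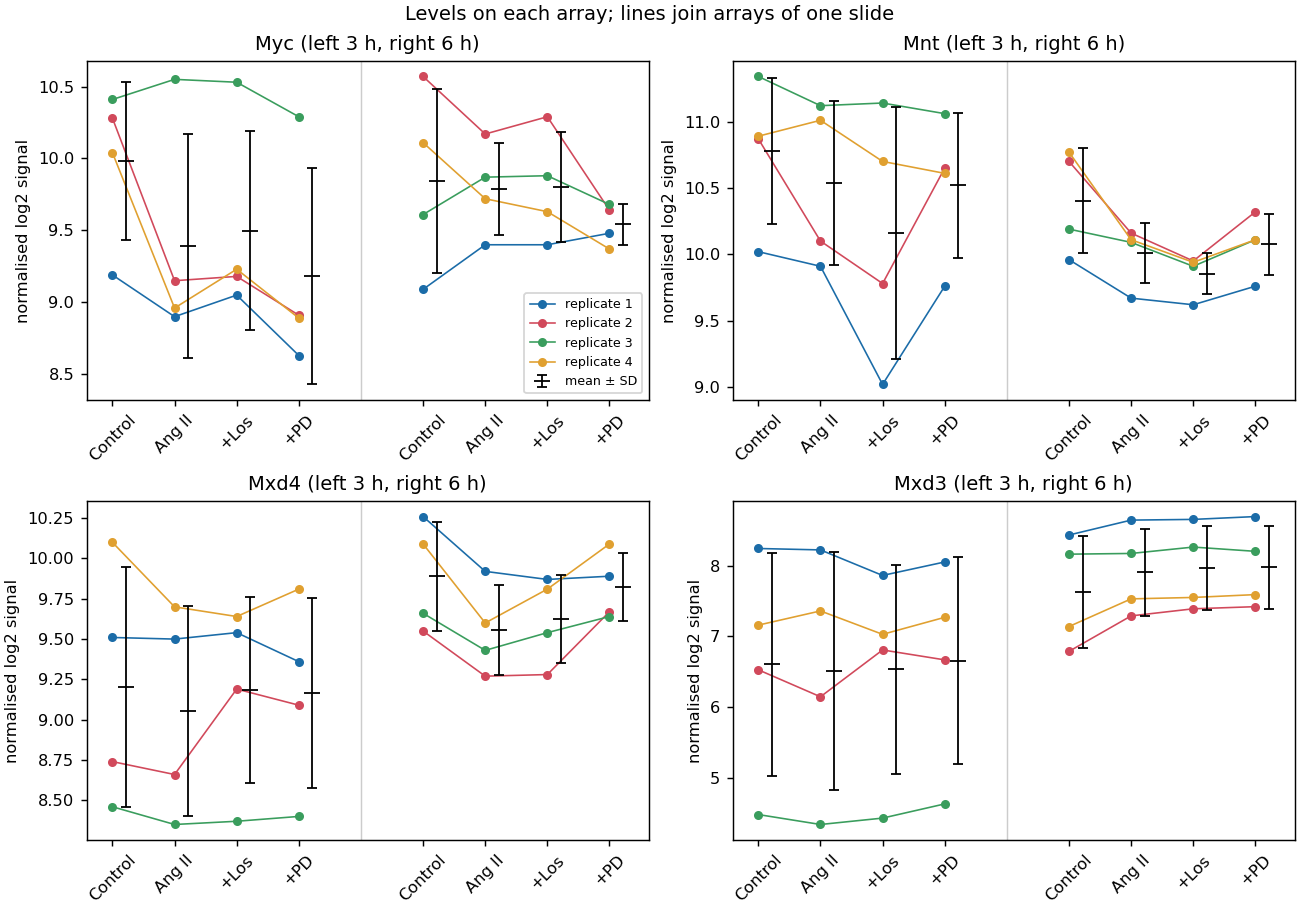
Normalised log2 signal of Myc, Mnt, Mxd4 and Mxd3 on each array, for the 4 groups at 3 h (left) and 6 h (right) of each panel. Coloured lines join the arrays of 1 slide and black bars give the mean ± SD of 4 arrays. At 3 h the Myc lines of replicates 1, 2 and 4 fall from Control to Ang II and that of replicate 3 does not. At 6 h all 4 Mnt lines and all 4 Mxd4 lines fall from Control to Ang II.

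Among the other genes called at 3 h, Bysl encodes bystin, needed for assembly of the small subunit. Its level was 9.36, 9.5, 9.63 and 9.12 in Control and 9.03, 8.68, 9.52 and 8.91 in Ang II cells. All 4 slides went down and the groups overlapped through replicate 3 of Ang II. The log2 fold change was -0.37 ± 0.13 (SE), with an unadjusted limma p of 0.0159 and an adjusted p of 0.342. Without replicate 2 it was -0.21 and no longer called. The call was lost in 6 of 17 alternatives.

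Fbl and Nop58, core proteins of the box C/D snoRNPs that guide methylation of ribosomal RNA, moved in opposite directions. Fibrillarin (Fbl), the methyltransferase itself, read 13.92, 13.49, 13.44 and 13.70 in Control and 14.12, 14.11, 13.61 and 14.09 in Ang II cells. It was higher on every slide, by 0.35 ± 0.16 (SE), with an unadjusted limma p of 0.0447 and an adjusted p of 0.383, and the call was lost when any of the 4 replicates was left out (0.26 to 0.40). Nop58 read 11.50, 11.51, 11.66 and 11.80 in Control and 11.38, 10.73, 11.56 and 11.31 in Ang II cells. It was lower on every slide, by -0.37 ± 0.16 (SE), with an unadjusted limma p of 0.0329 and an adjusted p of 0.369. That call was lost without replicate 2 (-0.24) and without replicate 4 (-0.33). Nop56, the partner of Nop58 in the same particle, was not called.

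Gnl3 encodes nucleostemin, a nucleolar GTP-binding protein of proliferating cells, and its promoter is among those printed above. Its Control levels were 11.65, 12.47 and 12.72 in replicates 1 to 3, the spot of replicate 4 being left out as an outlier, and its Ang II levels were 11.63, 11.74, 12.40 and 12.02. The 3 complete slides gave -0.02, -0.73 and -0.32. The fit gave -0.35 ± 0.12 (SE), with an unadjusted limma p of 0.0112 and an adjusted p of 0.33. The call was lost without replicate 2 (-0.19) and without replicate 3 (-0.37). At 6 h Gnl3 was again lower on all 4 slides, by -0.29 ± 0.09 (SE), with an unadjusted limma p of 0.00614, but short of the fold required, and it was called there without replicate 1 (-0.32) or without replicate 3 (-0.38).

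All 6 members of the RNA polymerase I group had positive differences at 3 h and none was called. The highest was Rrn3, the initiation factor that brings the polymerase to the ribosomal promoter, at 0.51 ± 0.29 (SE) and positive on 4 of 4 slides (0.29, 0.97, 0.37 and 0.42). Dkc1, Gar1, Nhp2 and Nop10, the 4 core proteins of the box H/ACA particles that guide pseudouridylation, had 4 negative differences and no call. Mxi1 was among the 3 highest members at 0.32 ± 0.19 (SE). Its within-slide difference was 1.01 in replicate 2 and 0.03, 0.17 and 0.07 in the others. Its 3 probes also disagreed, at 0.26, 0.68 and 0.03, and with the brightest probe alone the difference was 0.03. Small subunit genes divided evenly, with 5 above and 5 below 0, and of the 6 large subunit genes 5 were above 0.

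**Figure D2:**
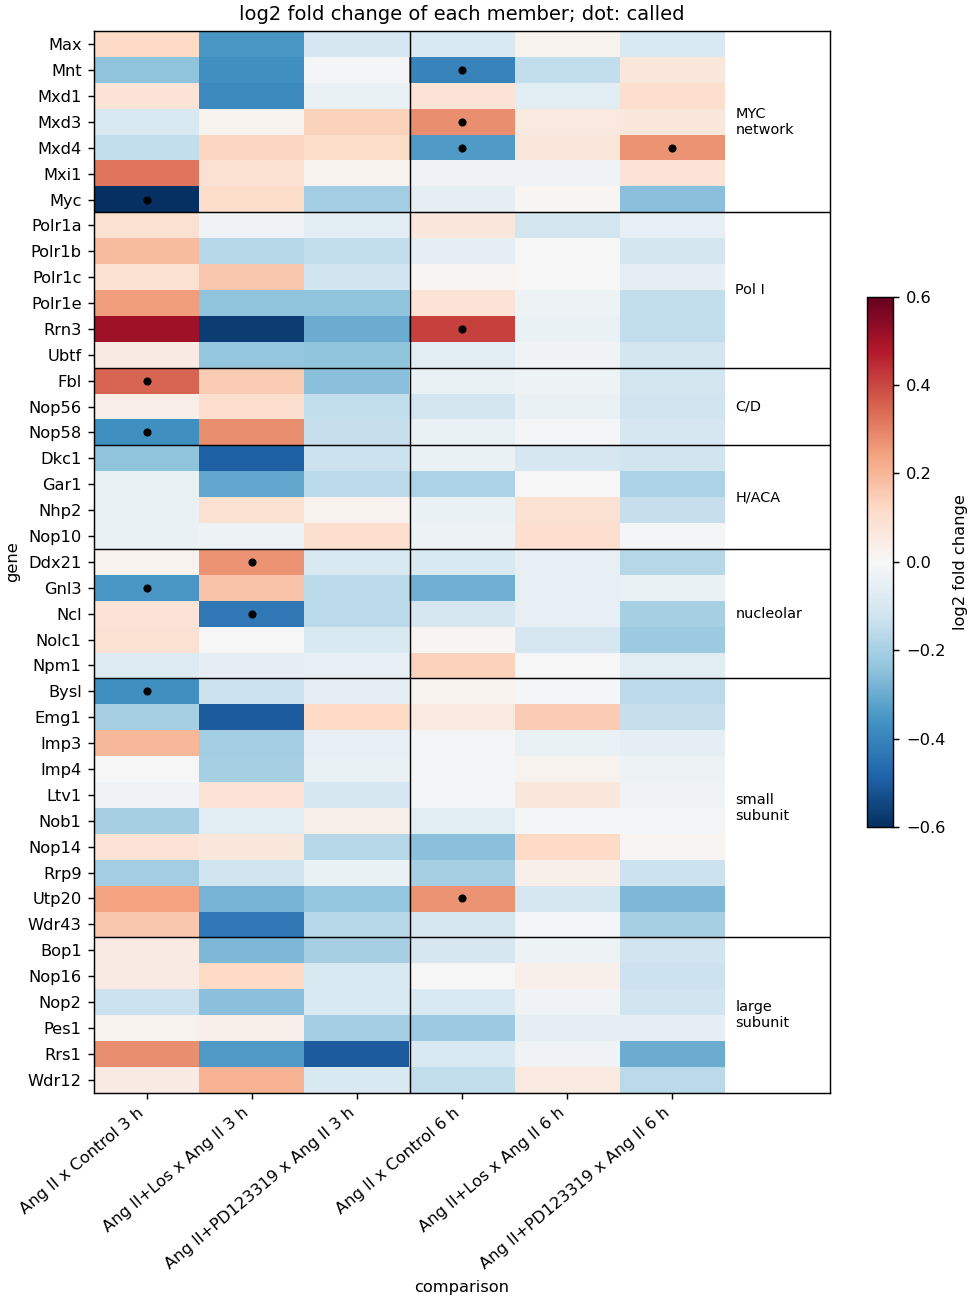
Fitted log2 fold change of the 41 members (rows, ordered by role) in the 6 comparisons (columns, 3 h on the left and 6 h on the right). Red is higher, blue is lower, and a black dot marks a call at an unadjusted p under 0.05 with a fold above 1.2 or below 0.8. There are 13 dots, and the 2 PD123319 columns are mostly blue outside the MYC network.

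By 6 h, 3 of the 5 members called in Ang II x Control were MYC antagonists. Mnt and Mxd4 fell, Mxd3 rose, and the biogenesis factors Rrn3 and Utp20 rose. The 3 higher members were 7.32% of 41, beside 6.78% of all genes called higher, and the 2 lower were 4.88%, beside 4.68%, so the members' shares were near those of the array as a whole. The members' median was -0.04 and that of all genes -0.01, with 29 members below 0.

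Mnt is the broadly expressed MAX partner that opposes MYC in growing and resting cells alike. At 6 h it read 9.96, 10.70, 10.19 and 10.77 in Control and 9.67, 10.16, 10.09 and 10.11 in Ang II cells. The groups overlapped, since replicate 1 was low in both, while the difference was negative on every slide at -0.30, -0.54, -0.10 and -0.66. The fit gave -0.40 ± 0.10 (SE), with an unadjusted limma p of 0.0015 and an adjusted p of 0.0899, the lowest among the members in any comparison. Without replicate 4 the difference was -0.31 and short of the fold required. The call was lost in 4 of 16 alternatives. Losartan arrays read 9.62, 9.95, 9.91 and 9.94 and PD123319 arrays 9.76, 10.32, 10.11 and 10.11. The difference from Ang II was -0.15 ± 0.10 (SE) with Losartan, negative on 4 of 4 slides, and 0.07 with PD123319, and neither was called.

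Mxd4, a MAX partner associated with cells leaving the cycle, read 10.26, 9.55, 9.66 and 10.09 in Control at 6 h, and 9.92, 9.27, 9.43 and 9.60 in Ang II cells. Each slide fell, by -0.34, -0.28, -0.23 and -0.49, although the slides themselves differed enough for the groups to overlap. The log2 fold change was -0.34 ± 0.09 (SE), with an unadjusted limma p of 0.00214 and an adjusted p of 0.0974. Without replicate 4 it was -0.28, short of the fold. Of 16 alternatives, 6 lost this call, with differences from -0.37 to -0.21 over all 16. Mxd4 was also the only member called at 6 h when PD123319 had preceded Ang II. Its PD123319 levels were 9.89, 9.67, 9.64 and 10.09, so it was higher than under Ang II on 3 slides and about level on that of replicate 1 (-0.03). That difference was 0.27 ± 0.09 (SE), with an unadjusted limma p of 0.00835 and an adjusted p of 0.606, and the call was lost without replicate 2 (0.23) and without replicate 4 (0.20). With Losartan the levels were 9.87, 9.28, 9.54 and 9.81, not called. Both comparisons use the same 4 Ang II arrays, so their values are not independent of each other.

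Mxd3 differs from the other MXD genes in being known from dividing cells. Its 6 h levels varied more between slides than between groups, with 8.43, 6.79, 8.16 and 7.14 in Control and 8.64, 7.29, 8.17 and 7.53 in Ang II cells. Within slides the differences were 0.21, 0.50, 0.01 and 0.39. The fit gave 0.28 ± 0.09 (SE), with an unadjusted limma p of 0.00732 and an adjusted p of 0.123, and the call was lost without replicate 2 (0.20) and without replicate 4 (0.24). At 3 h it was not called, and the spread between slides was wider still, from 4.49 to 8.24 in Control. It was well above background on 14 of the 16 arrays at 3 h. Mxd1 and Mxi1, the remaining antagonists, were not called at 6 h.

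Rrn3 and Utp20 are both dim on this array. Rrn3 read 5.24, 6.31, 6.24 and 6.33 in Control at 6 h and 6.26, 6.53, 6.36 and 6.60 in Ang II cells. The Control array of replicate 1 was low, which gave that slide a difference of 1.01 against 0.22, 0.12 and 0.26 on the others. The log2 fold change of 0.41 ± 0.17 (SE), with an unadjusted limma p of 0.0377 and an adjusted p of 0.209, was 0.20 without replicate 1 and not called, and it was also not called without replicate 2 (0.47) or without replicate 4 (0.45). Utp20, a large scaffold of the small subunit processome, read 4.68, 5.72, 5.77 and 5.88 in Control and 5.22, 5.79, 6.12 and 6.02 in Ang II cells. It too was low on the Control array of replicate 1. Its difference was 0.27 ± 0.12 (SE), with an unadjusted limma p of 0.042 and an adjusted p of 0.218, and it was lost without replicate 1 (0.18), replicate 3 (0.25) or replicate 4 (0.32). With normexp background correction, which adds an offset of 50 to each signal, the difference was 0.08 for Rrn3 and 0.03 for Utp20.

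Also at 6 h, Pes1 and Gar1 were lower on 4 of 4 slides with an unadjusted limma p under 0.05 and short of the fold required. Pes1, which acts with Bop1 and Wdr12 on the large subunit, differed by -0.22 ± 0.07 (SE), and Gar1 of the box H/ACA particle by -0.19 ± 0.07 (SE). In Ang II x Control at 6 h, 19.5% of members had such a p, beside 21.5% of all genes.

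**Figure D3:**
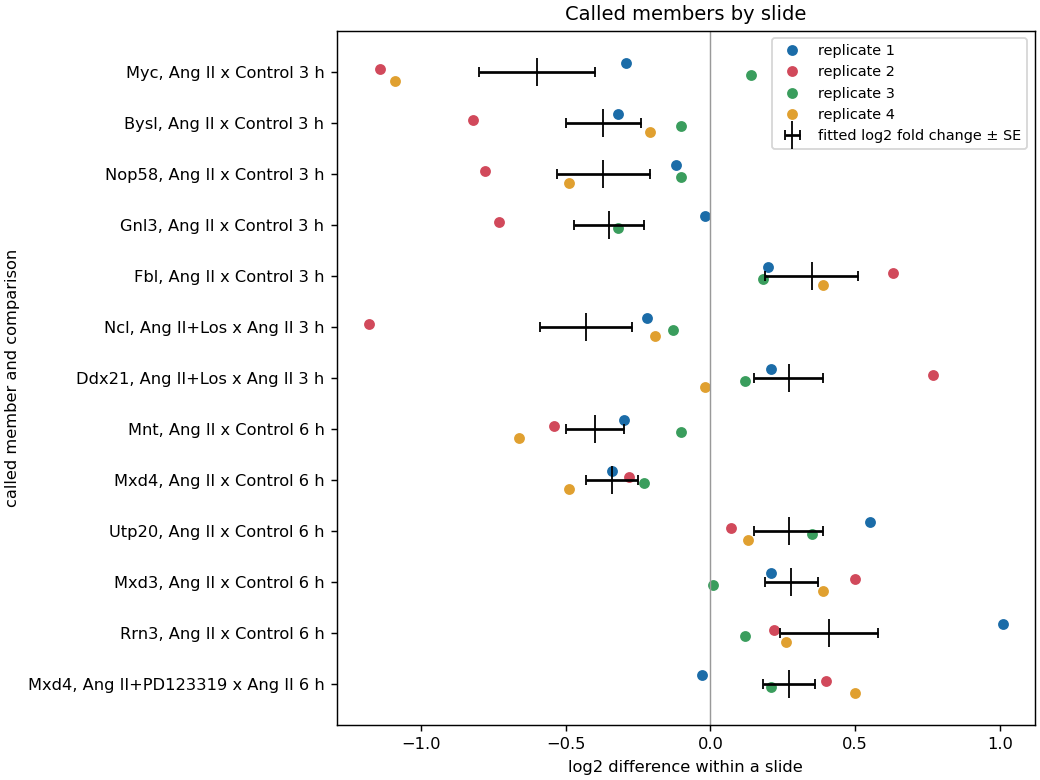
Within-slide log2 differences of the 13 gene and comparison pairs that were called. Coloured points are the 4 slides, and the black mark with its bar is the limma log2 fold change ± SE. Replicate 2 gives the farthest point of each pair called at 3 h, and replicate 1 that of Rrn3 and Utp20 at 6 h.

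The 2 times were set against each other in the fit of all 32 arrays. The change from 3 h to 6 h in the Ang II x Control difference was called higher for 2 members (4.88%), beside 3.4% of all genes, and lower for 1 (2.44%), beside 2.81%. It was 0.39 ± 0.16 (SE) for Bysl, 0.38 ± 0.17 (SE) for Mxd3 and -0.38 ± 0.18 (SE) for Fbl, with unadjusted limma p of 0.0251, 0.0403 and 0.0436 and an adjusted p of 0.734 for all 3. No gene on the array reached an adjusted p under 0.05 (0%). All 3 calls were lost without replicate 1, without replicate 2 or without replicate 4. For Mnt it was -0.14 ± 0.22 (SE) and for Mxd4 -0.18 ± 0.16 (SE), not called.

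Ang II+Los x Ang II asked which changes depended on the AT1 receptor. At 3 h Ddx21 rose and Ncl fell, so that 2.44% of members were called higher, beside 4.67% of all genes, and 2.44% lower, beside 5.41%. Ddx21, an RNA helicase of nucleolar transcription and processing, read 11.75, 11.76, 12.19 and 12.02 under Ang II and 11.96, 12.52, 12.31 and 12.01 with Losartan. The slide of replicate 2 rose by 0.77 and that of replicate 4 was about level (-0.02). Its difference was 0.27 ± 0.12 (SE), with an unadjusted limma p of 0.0495 and an adjusted p of 0.427. It was 0.10 without replicate 2 and not called, nor was it called without replicate 1 (0.29) or without replicate 3 (0.32).

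Ncl encodes nucleolin, an abundant nucleolar protein that binds ribosomal precursor RNA. Under Ang II it read 13.26, 13.78, 14.23 and 13.80, and with Losartan 13.04, 12.61, 14.09 and 13.61. All slides fell, that of replicate 2 by 1.18 and the others by at most 0.22. The log2 fold change was -0.43 ± 0.16 (SE), with an unadjusted limma p of 0.0187 and an adjusted p of 0.427. Without replicate 2 it was -0.18 and not called. The call was lost in 7 of 16 alternatives. Over the members the median was -0.07 against 0.00 over all genes, with 25 of 41 below 0, and over the 34 biogenesis genes it was -0.09, with 22 below 0. With the deposited values, which left 27 members, the members' median was -0.14. Whether this differs from the PD123319 comparison described below was not tested. Rrn3 (-0.57 ± 0.29, SE), Emg1 (-0.50 ± 0.29) and Dkc1 (-0.49 ± 0.27) had the lowest differences and were not called. Rrn3 differed by -2.01 on the slide of replicate 2, and it was called without replicate 1 (-0.86). In the pair of slides scanned together as replicates 3 and 4, Emg1 and Dkc1 turned positive at 0.11 and 0.08. Nop58 (0.28 ± 0.16, SE) and Wdr12 (0.21 ± 0.12) joined Ddx21 at the upper end, also without a call.

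At 6 h no member was called between Ang II+Los and Ang II, beside 0.535% of all genes called higher and 0.365% lower. No member had an unadjusted limma p under 0.05, and the paired t-test called 0 members as well. The differences spanned -0.15 for Mnt to 0.15 ± 0.11 (SE) for Emg1, the narrowest range of the 6 comparisons. Nearest to these were Polr1a, the catalytic subunit of RNA polymerase I, at -0.11 ± 0.12 (SE), and Dkc1, the pseudouridine synthase of the box H/ACA particle, at -0.10 ± 0.09 (SE). At the other end stood Nop14 of the small subunit processome (0.12 ± 0.12, SE), whose sign turned to -0.03 without replicate 2, and Nop10 of the box H/ACA particle (0.10 ± 0.10, SE). The members' median difference was -0.01 and that of all genes 0.00.

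Ang II+PD123319 x Ang II asked the same of the AT2 receptor, and here most biogenesis genes lay below 0 without single large changes. At 3 h no member was called, beside 2.02% of all genes called higher and 0.624% lower, and no member had an unadjusted limma p under 0.05. Yet 34 of 41 members (82.9%) were below 0, against 55.3% of all genes, and the members' median was -0.10 against -0.02. At 6 h 35 of 41 (85.4%) were below 0, against 51.5% of all genes, with medians of -0.11 and 0.00. Mxd4, described above, was the 1 member called (2.44%), beside 2.57% of all genes called higher, and 0 were called lower, beside 1.22%. These counts and medians are descriptions, without a test of the list.

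The low values lay mostly among the ribosome biogenesis genes. Of the 34 biogenesis genes, 30 were below 0 at 3 h, with a median of -0.12, and 33 at 6 h, with a median again of -0.12. The exception at 6 h was Nop14 at 0.01. Of the 7 MYC network genes, 4 were below 0 at 3 h and 2 at 6 h, with medians of -0.01 and 0.07. All members of the RNA polymerase I, box C/D, nucleolar protein and large subunit groups were below 0 at both times. Over the full set 31 members were below 0 at both times and 3 above 0 at both. The 25% of genes with the highest signals were also described. Of these 51.1% were below 0 at 3 h and 51.2% at 6 h, with a median of 0.00 both times. Of the members among them, 16 of 18 at 3 h and 17 of 19 at 6 h were below 0. In Ang II x Control 9 of 18 such members were below 0 at 3 h, and 15 of 19 at 6 h, beside 52.5% of these bright genes at 6 h. With Losartan it was 8 of 18 at 3 h and 13 of 19 at 6 h. The part of signal intensity in these values was not tested.

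By slide, the members' median at 3 h was -0.05, -0.09, -0.10 and -0.15 in replicates 1 to 4, with 25, 25, 31 and 35 of 41 members below 0. At 6 h it was 0.00, -0.13, -0.10 and -0.22, with 20, 31, 33 and 36 below. The slide of replicate 1 at 6 h thus showed no shift. On the other 7 slides the members' median was below that of all genes, by little on replicate 1 at 3 h (-0.05 against -0.02). The medians of all genes stayed between -0.04 and 0.00. Single slides elsewhere had like values. Replicate 4 had -0.11 with 31 members below 0 in Ang II x Control at 6 h. With Losartan at 3 h it had -0.07 with 30 below. The other slides of these comparisons lay between -0.08 and 0.06. Under every alternative normalization, background, filter, probe choice and left-out replicate, the members' median lay between -0.12 and -0.08 at 3 h and between -0.16 and -0.07 at 6 h. All these values rest on the same 4 Ang II arrays per time as the Ang II x Control differences.

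**Figure D4:**
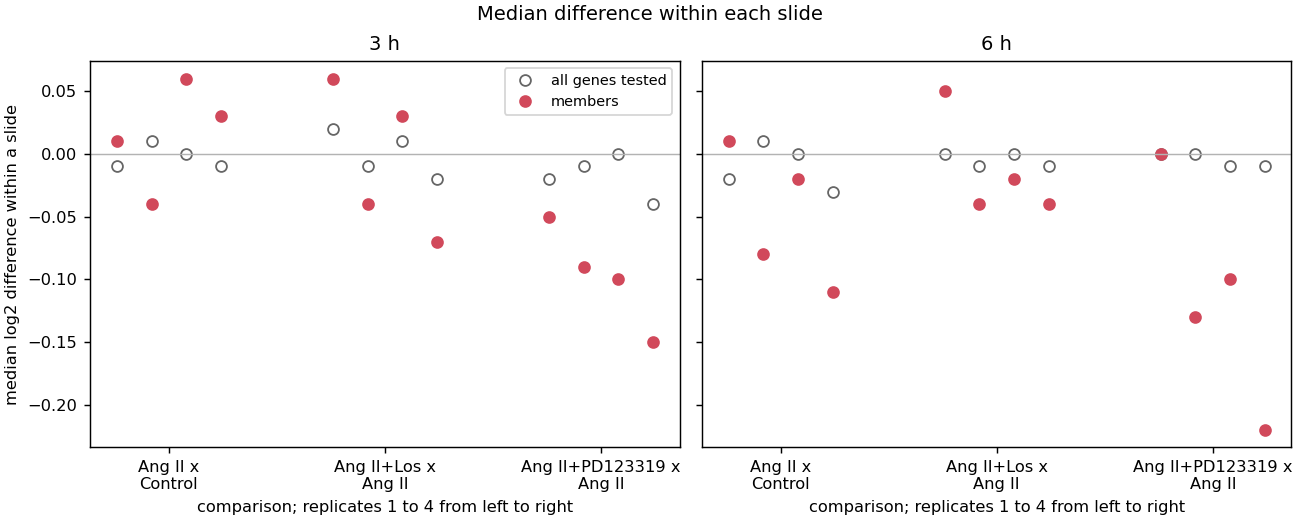
Median log2 difference within each slide for the 41 members (filled) and all genes tested (open), for the 3 comparisons at 3 h (left) and 6 h (right), with replicates 1 to 4 from left to right within a comparison. In Ang II+PD123319 x Ang II the members' medians run from -0.05 to -0.15 at 3 h and from 0.00 to -0.22 at 6 h, while those of all genes stay between -0.04 and 0.00.

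Rrs1, a factor that brings the 5S particle into the large subunit, had the lowest difference from Ang II at both times. At 3 h it read 7.85, 8.72, 8.48 and 8.11 under Ang II and 7.65, 7.84, 8.05 and 7.63 with PD123319, lower on each slide, with overlap between the groups through replicate 1 of Ang II. The difference was -0.50 ± 0.23 (SE), with an unadjusted limma p of 0.0533 and an adjusted p of 1, so it was not called. The paired t-test and 7 of the other 16 alternatives did call it. At 6 h the levels were 9.23, 9.22, 8.56 and 9.0 against 9.13, 8.93, 8.29 and 8.47. All 4 slides were again lower, by -0.30 ± 0.09 (SE), with an unadjusted limma p of 0.00668 and an adjusted p of 0.56, short of the fold required.

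At 3 h Rrn3 (-0.30 ± 0.29, SE) and Fbl (-0.25 ± 0.16) followed Rrs1, and Mxd3, Emg1 and Mxd4 were highest at 0.14, 0.12 and 0.11, none of them called. At 6 h 5 biogenesis genes had a negative difference with an unadjusted limma p under 0.05, and 1 member, Mxd4, a positive one. Such a p was found for 14.6% of members, beside 6.37% of all genes. In every other comparison the members' share was below that of all genes. At 3 h it was 0% beside 2.99% with PD123319, 4.88% beside 10.9% with Losartan and 12.2% beside 12.7% for Ang II x Control. At 6 h it was 0% beside 1.99% with Losartan and 19.5% beside 21.5% for Ang II x Control. The 5 biogenesis genes were Rrs1, Utp20 (-0.27 ± 0.12, SE), Nolc1 (-0.22 ± 0.07), Gar1 (-0.19 ± 0.07) and Ddx21 (-0.17 ± 0.07), lower on 4 of 4 slides each, and none reached the fold required. Nolc1 read 11.40, 11.52, 11.39 and 11.34 under Ang II and 11.30, 11.28, 11.21 and 10.99 with PD123319. Its 2 probes differed by -0.25 and -0.18. The groups did not overlap for Nolc1 and Ddx21. How often this held over all genes was not computed, so nothing about these 2 genes is drawn from it. Mxd1 and Mxi1, at 0.10 and 0.08, stood next to Mxd4 at the upper end.

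Other ribosome biogenesis genes, listed apart from the members, lay in the same place. They comprised further factors of RNA polymerase I, of both subunits, of the exosome and of RNase MRP. Of 89 tested at 3 h, 75 were below 0 in Ang II+PD123319 x Ang II with a median of -0.10, and of 90 at 6 h, 73 were below 0 with a median of -0.09. The only call among them was Mki67ip at 3 h, at -0.32 ± 0.11 (SE), or 1.12% called lower, beside 0.624% of all genes. Textbook MYC target genes outside the nucleolus were 24 in number, of which 17 were below 0 at 3 h and 21 at 6 h, with medians of -0.02 and -0.09 and no call. Of all genes, 2.02% were called higher and 0.624% lower at 3 h, and 2.57% higher and 1.22% lower at 6 h.

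Between Ang II and Control the medians of these other biogenesis genes were closer to 0. At 3 h they had 5 of 89 called higher (5.62%, beside 5.04% of all genes) and 2 lower (2.25%, beside 5.99%), from Ftsj3 at 0.56 to Rcl1 at -0.43, and a median of 0.04. At 6 h, of 90 tested, 1 was higher, Nol10 at 0.27 (1.11%, beside 6.78% of all genes), and 2 were lower, Rcl1 at -0.49 and Mki67ip at -0.33 (2.22%, beside 4.68%), with a median of -0.06. Of the MYC targets outside the nucleolus, Ldha, the lactate dehydrogenase A gene, was the 1 of 24 called higher at 3 h (0.43 ± 0.17, SE), or 4.17%, beside 5.04% of all genes. At 6 h the transferrin receptor gene Tfrc (0.59 ± 0.13, SE, adjusted limma p of 0.0747) and the translation factor gene Eif4a1 (0.31 ± 0.06, SE, adjusted limma p of 0.0678) were called higher, 8.33% of the list beside 6.78% of all genes. The 4 other MYC and MLX network factors tested had no call in any comparison, beside 0.365% to 6.78% of all genes called in 1 direction.

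With Losartan at 3 h the other biogenesis genes had 4 of 89 called higher (4.49%, beside 4.67% of all genes) and 2 lower (2.25%, beside 5.41%), from Rpp30 at 0.43 to Rsl24d1 at -1.16, and a median of 0.06. The MYC targets had 2 of 24 called higher (8.33%) and 3 lower (12.5%), beside 4.67% and 5.41% of all genes, from Cdc25a at 0.39 to Paics, of purine synthesis, at -0.56. At 6 h there was no call in either list, beside 0.535% of all genes called higher and 0.365% lower, and the medians were 0.01 and 0.00.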

How the data were processed

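Total RNA from 32 samples of C6 cells was labelled with Cy3 and hybridised to Agilent rat arrays. Per the file headers, the authors extracted spot intensity with Agilent Feature Extraction 9.5.3.1, which subtracts background and writes a processed signal. The deposited log2 table holds the log2 of those signals: 561803 values were compared and 100% agreed within 1e-06, with 38.17% of its cells blank, so the scanner intensity files were used here.

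Spots flagged as outliers were dropped. At 3 h, where the software put no surrogate for signals near background, such signals were set to their error, as the software did at 6 h. Spots of a probe were averaged in log2, and probes with more than 2 gaps of 16 arrays were left out. A probe was kept when any group had it well above background on each of its 4 arrays, and kept probes of a gene were averaged (7 members have more than 1 probe). Arrays of a time were normalised by cyclic loess (3 iterations, span 0.7) in limma 3.58.1 with R 4.3.3. The linear model had the replicate number as a block, because replicate number and slide coincide and same-numbered samples deviated together (correlations of 0.15 to 0.92 at 3 h and 0.55 to 0.83 at 6 h, over 0.1 in 24 of 24 pairs at each time). The submitters' design text names paired t-tests for these comparisons and the study's array methods name t-tests without saying whether they were paired, so both kinds were tried as alternatives. The code was tested on simulated data. Precision is limited by 4 arrays a group.

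Genes named were Myc and Max, each member called in a comparison, and the 3 highest and 3 lowest in each; of other lists, the called genes with the largest and smallest change. Nolc1, Gar1, Ddx21 and Pes1 at 6 h were added because of their p-values. The members, lists and tests were chosen with earlier results of these data known. Figures used matplotlib 3.10.9.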

Additional observations from a re-analysis of the deposited data

Results flagged for a closer look

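Levels of the 13 genes shown array by array were searched for an array standing far from the other 3 of its group. Chance alone flags about 1 in 20 such groups, and 103 groups of 4 were searched. At 3 h the slide of replicate 3 was high for Myc in 3 groups, at 10.55 under Ang II (others 8.90 to 9.15), 10.53 with Losartan (9.05 to 9.23) and 10.29 with PD123319 (8.63 to 8.91). On the same slide Bysl with Losartan was 9.53 (others 8.66 to 8.76) and Fbl under Ang II was 13.61 (14.09 to 14.12). Rrn3 under Ang II at 3 h was 6.44 in replicate 2 (others 5.30 to 5.46). At 6 h the slide of replicate 1 was low for Mnt under Ang II at 9.67 (others 10.09 to 10.16) and with Losartan at 9.62 (9.91 to 9.95), and its Control array was low for Rrn3 at 5.24 (6.24 to 6.33) and for Utp20 at 4.68 (5.72 to 5.88). Rrn3 with PD123319 was 6.46 in replicate 4 (others 6.21 to 6.24).

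The Ang II effect differed between times, by an unadjusted p under 0.05 of the limma interaction, for Bysl (0.39), Mxd3 (0.38) and Fbl (-0.38), each with an adjusted p of 0.734.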

How the results depend on the processing

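The counts of members called depended on the processing in every comparison but that of Losartan with Ang II at 6 h, where each alternative gave 0. No member reached an adjusted p under 0.05 under any alternative. Genes outside the list did for Ang II x Control at 6 h, 328 of them without replicate 3, 69 with the stricter filter, 47 with the deposited values and 1 with no filter, as did 4 for the PD123319 comparison at 6 h with no filter and 2 for Ang II x Control at 3 h in scan 2. For Ang II x Control at 3 h the count of 5 was 0 with no replicate block, 2 by the paired t-test (Fbl and Rrn3, both higher), 0 by the unpaired t-test, 3 under 75th percentile scaling, 2 with normexp, 2 with the deposited values, 2 in scan 1 (replicates 1 and 2), 1 in scan 2 (replicates 3 and 4), and 0 to 4 when 1 replicate was left out. For Ang II x Control at 6 h the count of 5 was 1 with no replicate block, 1 by the paired t-test, 0 by the unpaired t-test, 3 under 75th percentile scaling, 3 under quantile normalization, 2 with normexp, 3 with the deposited values, 0 in scan 3 (replicates 1 to 3), and 0 to 6 with 1 replicate left out. For the Losartan comparison at 3 h the count of 2 was 0 with no replicate block, 0 by either t-test, 1 under 75th percentile scaling, 1 under quantile normalization, 0 with the deposited values, 0 with only the 8 arrays compared, 7 in scan 1, 0 in scan 2, and 0 to 5 with 1 replicate left out. For the PD123319 comparison at 3 h the count of 0 was 1 by the paired t-test, under 75th percentile scaling, under quantile normalization, with the stricter filter, with the deposited values, with only the 8 arrays, and in scan 2, and 0 to 1 with 1 replicate left out. At 6 h the count of 1 was 0 with no replicate block, by either t-test, with normexp and in scan 3, 2 under quantile normalization, and 0 to 2 with 1 replicate left out. For the change of the Ang II effect between times the count of 3 was 0 with no replicate block and 0 to 3 with 1 replicate left out. The cause of these changes was not tested, beyond the smaller number of samples where replicates were left out.

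Of 777 recomputed differences of named members, 639 kept their direction and their side of the threshold, 104 lost the call, 20 gained one and 14 changed sign. None of the 14 was a called difference. In scan 2 the sign turned for Max in Ang II x Control at 3 h (-0.03), with Losartan (0.14) and with PD123319 (0.01), and with Losartan for Emg1 (0.11) and for Dkc1 (0.08). Max with Losartan at 3 h also turned without replicate 2 (0.03, the range with 1 replicate left out being -0.56 to 0.03). For Myc in Ang II x Control at 6 h it turned without replicate 2 (0.06), without replicate 4 (0.06) and in scan 3 (0.06), the range with 1 replicate left out being -0.18 to 0.06. With Losartan at 6 h it turned for Myc (-0.02) and Max (-0.05) with normexp, for Myc (-0.03, range -0.03 to 0.04 with 1 replicate left out) and Nop14 (-0.03, range -0.03 to 0.18) without replicate 2, and for Max (-0.05) without replicate 3. The members' median in Ang II x Control at 3 h moved to -0.02, -0.05 and -0.01 under 75th percentile scaling, quantile normalization and normexp, and that with Losartan at 3 h to -0.14 with the deposited values, which left 27 members. Low signals limit Rrn3, Utp20 and Mxd1, though Rrn3 and Utp20 were well above background on all 16 arrays of each time. At 3 h Mxd1 was so on 15 arrays and Mxd3 on 14, and at 6 h both were on 16.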
